A study of Mus musculus with 6 samples.

Results

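Expression from the X chromosome was compared between day 7 and day 4 of differentiation, with 2 RNA-seq libraries per day, in 16.7 TST, a line of embryonic stem cells from a female mouse with the genotype label WT (wild type). The series also holds 2 libraries of undifferentiated cells at day 0. Per the labels' protocols, the stem cells had been kept with LIF on irradiated feeder fibroblasts (MEF), and differentiation began when they were taken off the feeders to form embryoid bodies in medium lacking LIF. On day 4 the bodies went onto gelatin-coated plates, so the later days of the course were spent there. The labels do not explain TST or mention any allele change. Lines of that name are known from earlier work for a truncated Tsix gene on the mus X, which directs inactivation to that X. Cas and mus are the allele names in the file headers, which call the cas allele Xa, the active X, and the mus allele Xi, the inactive X. Libraries of a day are not stated to come from separate cultures, so p-values measure the spread between libraries, which may be technical.

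The deposited tables listed 372 genes, all on chromosome X of GRCm38, and the comparison took every gene with at least 20 allele-specific reads summed over the libraries of each day. That rule kept 312 genes and left out 60, of which 55 were short of reads at day 7 and 5 at day 4. For each gene the mus share is the percent of its allele-specific reads that came from the mus allele. Total level is in TPM, a length-scaled abundance set to the same total in every library. The cas-allele or mus-allele level is the TPM multiplied by that allele's share.

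Female mammals silence most genes of 1 X chromosome. The noncoding RNA Xist is transcribed from the X that will be inactivated, spreads along it and recruits silencing factors, and in cultured female stem cells this happens as they differentiate. Some genes, called escape genes, remain transcribed from the inactive X. Because the cas and mus chromosomes differ in sequence, reads over those differences show which X a transcript came from, and a silenced mus X shows as a falling mus share.

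The day 4 libraries held 155021.5 and 155203 allele-specific reads of the 312 genes, and the day 7 libraries 70593 and 69005. The median gene had 279.2 and 276.5 reads at day 4 and 112.8 and 106 at day 7, so shares were less precise at day 7. Of these reads, 24.9% (95% Wilson interval 24.7 to 25.13) and 25.1% (24.86 to 25.29) came from the mus allele at day 4. At day 7 the summed mus share was 10.3% (10.08 to 10.52) and 10.4% (10.15 to 10.61). The intervals cover counting error only. Without Xist, whose reads were nearly all from mus, the summed share was 22.49% and 22.96% at day 4 and 8.23% and 8.53% at day 7. For the median gene, day 4 libraries had mus shares of 19.99% and 20.1%, and day 7 libraries 4.33% and 4.80%. Every day 7 library lay below every day 4 library on each of these measures, although an exact two-sided permutation test of 2 libraries against 2 cannot go below p = 0.333, the value it gave for both the summed and the median share.

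Nearly all of the fall in summed level was on the mus allele. Summed TPM of the 312 genes was 24840 and 25010 at day 4 and 20890 and 20800 at day 7, a fall of 16.4% in the mean. The mus-allele part was 5801 and 6014 TPM at day 4 and 1714 and 1788 TPM at day 7, which is 70.4% less. The cas-allele part was 19040 and 18990 TPM at day 4 and 19170 and 19010 TPM at day 7. Day 7 thus held 100.4% of the day 4 cas level, with overlapping libraries (exact two-sided permutation p = 0.667). The rule on reads leaves out genes that were low at day 7. Over the whole table the summed cas level was 20970 and 20790 TPM at day 4 and 19970 and 19760 TPM at day 7. In bulk RNA, fewer cells of a type and less RNA per cell cannot be told apart.

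**Figure D1:**
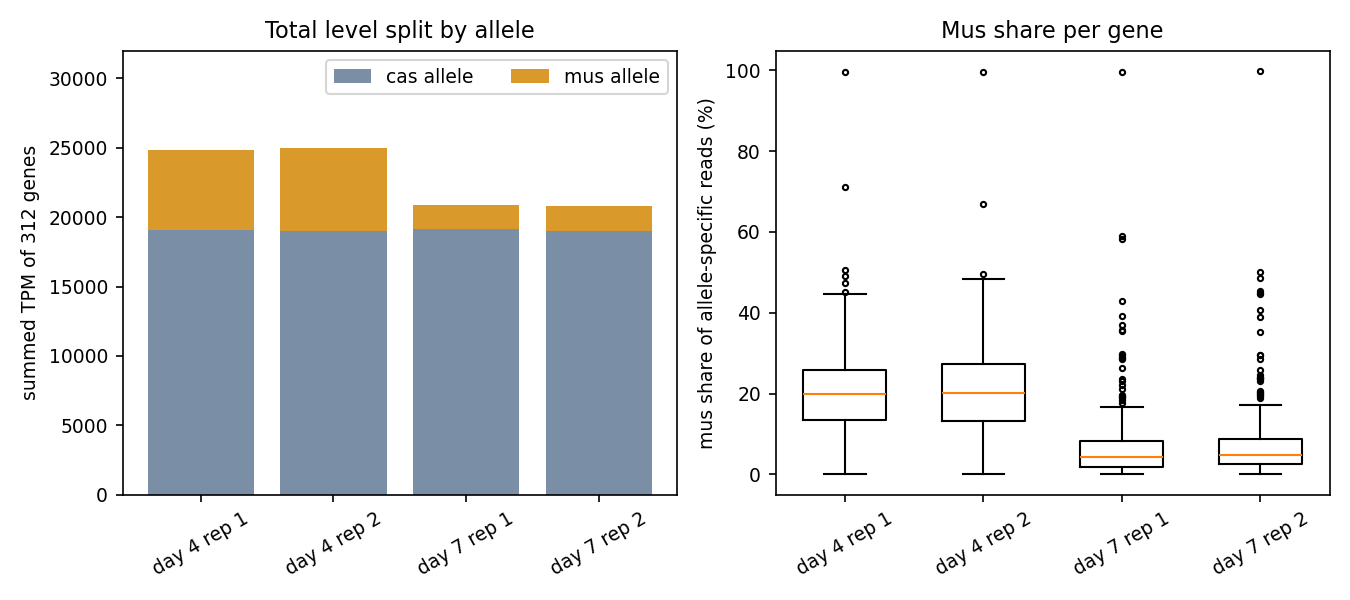
Left, summed TPM of the 312 genes in each library as stacked bars of the cas and mus alleles; right, box plots of the mus share per gene (percent; line at the median, box from the lower to the upper quartile, whiskers to 1.5 times its height, circles beyond). The summed cas level was about level across the 4 libraries, from 18990 to 19170 TPM, while the mus level went from 5801 and 6014 TPM to 1714 and 1788 TPM.

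Gene by gene, 245 of 312 genes had a lower mus share at day 7 and 2 had a higher one. A call is an adjusted p (Benjamini-Hochberg over all 372 genes) under 0.05 in edgeR's quasi-likelihood test. These were 78.5% and 0.641% of the genes tested. Over the 312 genes the median change in the log2 odds of mus to cas reads was -2.15, with quartiles of -2.74 and -1.36. In 280 genes, 89.7%, both day 7 libraries lay below both day 4 libraries, and in 8 genes, 2.56%, both lay above. The share of genes called rose with depth, from 51.3% among the 78 genes with the fewest reads at day 7 to 92.3% among the 78 with the most.

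Scaled so that the median gene did not change, the split of calls turned round. Relative to that gene, 54 genes were called higher in share and 11 lower. A higher relative call means that a gene lost less of its mus share than the median gene did. Falls and rises below are absolute unless said otherwise.

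The distribution of shares moved towards silence. At day 4, 267 genes had a mean mus share of at least 10%, and at day 7, 60 did. Genes between 1% and 5% numbered 15 at day 4 and 143 at day 7, and genes under 1% numbered 6 and 28. No mus read was found at day 7 in 18 genes. The median gene kept 26.8% of its day 4 share, with quartiles of 16.8% and 43.1%, and 33 genes kept under 10% and 57 over 50%. Genes under 1% at day 4, of which there were 6, kept 114.7% of it in the median where they had any mus read. Genes of 1% to 5% kept 69.0% and genes of 5% to 10% kept 33.9%. Genes of 10% to 20% kept 21.0%, genes of 20% to 30% kept 24.2% and genes of 30% or more kept 43.1%, so the part kept was smallest at middle shares. Across the 312 genes the order of shares at day 4 and day 7 was alike (Spearman correlation 0.623, across genes, which are not independent replicates).

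**Figure D2:**
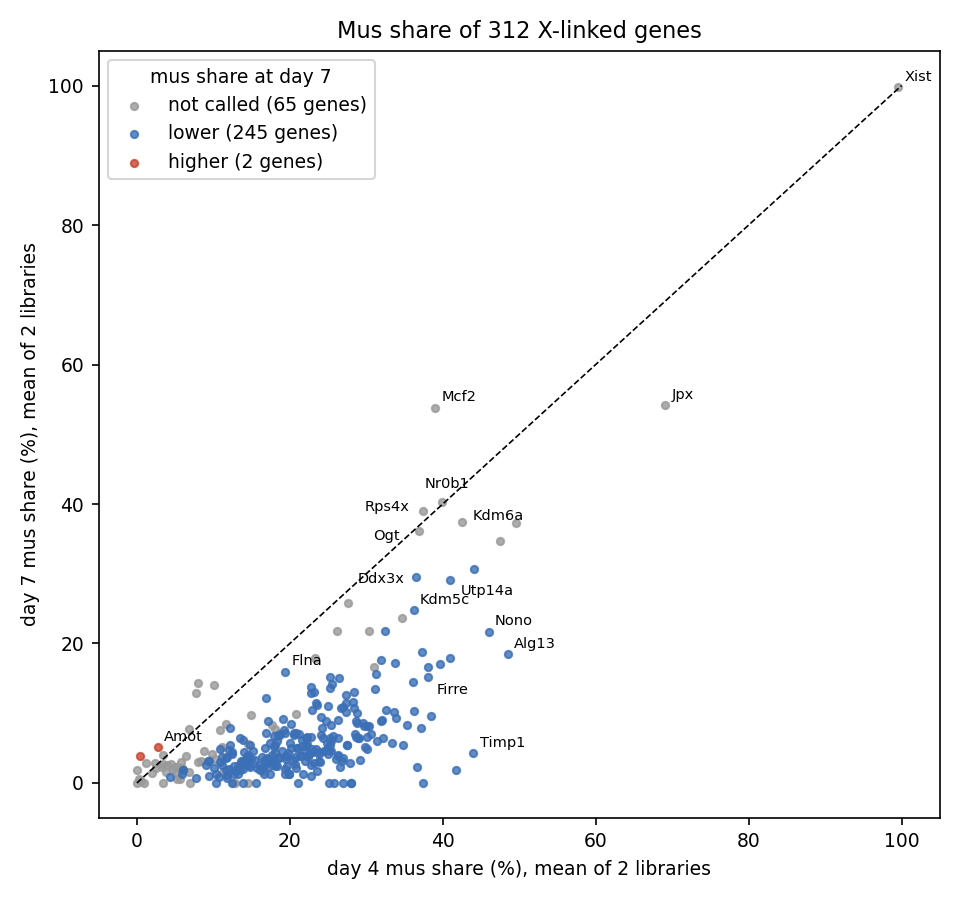
Mean mus share of each gene at day 7 (vertical axis, percent) against day 4 (horizontal axis, percent), 1 point per gene coloured by its share call, with a dashed line of equal shares. Most of the 312 points lie below the line, and 10 genes were at 30% or more at day 7, among them Xist, Rps4x, Ogt and Nr0b1.

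Xist itself stayed a transcript of the mus X. Its share was 99.6% and 99.5% at day 4 and 99.7% and 99.9% at day 7, a difference that was not called (adjusted p = 0.134, edgeR). Its level was lower at day 7, with 108.6 and 98.1 TPM at day 4 and 57.9 and 59.4 TPM at day 7. The groups did not overlap, and limma on log2(TPM + 1) gave a change of -0.81 (SE 0.07, adjusted p = 1.912e-05). Xist lies at chrX:103460366-103483254 on the minus strand and overlaps its antisense gene Tsix, and whether counting used strand is not given in the sources used here. The other genes around it also went down.

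Of 7 measured genes of the X-inactivation centre, the region that controls Xist, 6 had enough reads on both days. All 6 had a lower total level at day 7, against a background of 54.8% of genes called lower and 28.8% higher (171 and 90 of 312). The call for Jpx was not kept when total level was scaled to the median gene, leaving 5, beside 110 of all 312 genes. Ftx, a noncoding gene next to Xist that promotes its expression in mouse cells, had 68.4 and 73.7 TPM at day 4 and 23.3 and 22.8 TPM at day 7. Its mus share was 40.6% and 38.8%, then 19.2% and 15.0% (log2 odds change -1.63, 95% interval -2.16 to -1.10). Rlim, a ubiquitin ligase that removes a repressor of Xist, had a mus share of 21.2% and 19.1% at day 4 and 5.34% and 4.61% at day 7, and its TPM went from 220.1 and 219.2 to 87.3 and 87.0. Both genes separated the days without overlap in share and in level.

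Jpx, the noncoding activator of Xist that the study is about, had few reads at day 7. Its mus share was 71.2% and 67.0% at day 4 and 58.33% and 50% at day 7, on 120 and 23 reads. The day 7 libraries lay lower, but the share change was not called (log2 odds -0.94, 95% interval -2.61 to 0.72). Jpx level was 4.74 and 3.80 TPM at day 4 and 3.12 and 3.27 TPM at day 7 (adjusted p = 0.0407, limma). Jpx overlaps Ftx on the other strand. Chic1 had mus shares of 23.5% and 22.1% at day 4 and 5.13% and 0% at day 7, a called fall.

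Escape genes also lost mus share. The list of 16 known escape or partly escaping mouse genes held 11 called falls of mus share, beside 78.5% of all genes, and 0 rises. Its median share went from 36.6% at day 4 to 19.5% at day 7. The list kept 69.0% of its day 4 share in the median, against 26.8% for all 312 genes. Relative to the median gene, 7 of the 16 were called higher and 0 lower, beside 54 and 11 of all 312. The total level of 13 fell, against 54.8% over all genes, and of 1 (Mid1) rose. Scaled to the median gene the counts were 8 and 3, beside 110 and 155 of all 312. The list shares Xist, Jpx and Ftx with the X-inactivation centre, and it was compiled with earlier results of these data known.

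Kdm5c, a histone H3 lysine 4 demethylase and a classical escape gene, showed the pattern on a level that did not move. Its mus share was 35.2% and 37.2% at day 4 and 26.3% and 23.2% at day 7 (log2 odds -0.78, 95% interval -0.96 to -0.60, adjusted p = 1.593e-16). Its TPM was 112.2 and 115.0 at day 4 and 115.8 and 114.7 at day 7 (adjusted p = 0.725). The mus-allele level was lower and the cas-allele level higher at day 7, each called. Utp14a, a factor of ribosomal RNA processing, had mus shares of 40.3% and 41.6% at day 4 and 28.6% and 29.6% at day 7.

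Ddx3x, an RNA helicase, had 34.8% and 38.1% at day 4 and 29.6% and 29.4% at day 7. Its fall by 0.45 in log2 odds was called by edgeR (adjusted p = 0.0006736) and not by DESeq2 (0.0575). Its level went from 354.8 and 369.4 TPM to 148.7 and 146.5 TPM, on both alleles. Kdm6a, a histone H3 lysine 27 demethylase, had 43.4% and 41.6% at day 4 and 29.9% and 45.0% at day 7 on 73.5 reads, and its libraries of the days overlapped (log2 odds -0.39, 95% interval -1.11 to 0.33). Eif2s3x, a translation initiation factor subunit, went down to 8.33% and 9.50% from 26.7% and 30.5%, and Firre, a long noncoding RNA, to 16.2% and 14.2% from 38.1% and 38.0%. Of the 50-base words in the Eif2s3x transcripts, 34.6% also occur in other genes, so its counts are less certain. Pbdc1, Shroom4, Syap1, 4933407K13Rik and 1810030O07Rik completed the called falls, the last of them lost in DESeq2 (adjusted p = 0.0949) and without the second day 7 library (0.278).

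Among the 10 highest mus shares at day 7 in genes with at least 50 reads on each day, several showed no called change. Ogt, the enzyme that adds O-linked N-acetylglucosamine to proteins, had mus shares of 37.0% and 36.8% at day 4 and 36.9% and 35.2% at day 7. Its log2 odds changed by -0.05 with a 95% interval of -0.26 to 0.16, which excludes a fall of the size of the median gene. Its total level meanwhile went from 199.4 and 197.3 TPM to 106.2 and 106.1 TPM, and both alleles fell alike, with log2 changes of -0.87 for cas and -0.92 for mus. Ogt lies at chrX:101640060-101684351.

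Rps4x, a ribosomal protein gene, had 37.4% and 37.4% at day 4 and 39.1% and 39.0% at day 7 (95% interval of the log2 odds change -0.19 to 0.40). Its level was 539.4 and 560.7 TPM at day 4 and 201.9 and 199.4 TPM at day 7. Of its 50-base words, 41.2% recur elsewhere, mostly in processed pseudogenes, so reads of those copies could enter its share. Nr0b1, a nuclear receptor of the pluripotency network, had 38.5% and 41.2% at day 4 and 35.7% and 44.7% at day 7. With 80 reads at day 7 the interval ran from -0.91 to 0.93, so a change smaller than that was not detectable at this depth. Its level was 65.6 and 69.5 TPM at day 4 and 13.9 and 13.7 TPM at day 7. These 3 genes had in common a total level that fell on both alleles.

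In all, 47 genes had a mus share of at least 10% in both day 7 libraries, against 250 at day 4. Of the 47, 33 had nonetheless fallen in share, beside 78.5% over all genes, and 11 were on the escape list. Total level was lower in 34 and higher in 6, beside 54.8% and 28.8%. Nexmif and Pnma5 were also among the highest, with 28.8% and 40.6%, and 29.0% and 45.5%, on 61.5 and 53 reads, and their day 4 shares were between 45.8% and 50.7%. Neither change was called.

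Only 2 genes, Amot and Rtl8c, were called with a higher mus share at day 7, and both stayed mostly cas. Amot encodes angiomotin, a scaffold at cell junctions that restrains the transcriptional coactivator YAP. Its mus share was 2.43% and 3.01% at day 4 and 4.99% and 5.37% at day 7, on 5046 and 5572 reads (log2 odds 0.95, 95% interval 0.67 to 1.23, adjusted p = 4.668e-10). Its total level was 153.3 and 183.6 TPM at day 4 and 241.5 and 231.0 TPM at day 7, and its mus-allele level 3.72 and 5.52 TPM, then 12.04 and 12.41 TPM. Share and level both separated the days. Amot lies at chrX:145446425-145505181.

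Rtl8c, a gene derived from a retrotransposon Gag sequence, had mus shares of 0.40% and 0.41% at day 4 and 1.89% and 5.88% at day 7 on 104 reads. The call (adjusted p = 0.0252) was lost without the first day 4 library (0.0789), without the second (0.0736) and without the second day 7 library (0.358). Other tools gave 2 rises with DESeq2 and 4 with limma on the empirical logit.

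Among genes with at least 50 reads on each day, the 10 largest called falls in percentage points came from genes with day 4 shares of about 26% to 50%. A ranking in points favours genes that start high. Relative to the median gene, Timp1, Alg13, Atp6ap2, Taf1, Renbp and Rbm3 were not called, while Zdhhc9 kept its call. Timp1, a secreted inhibitor of matrix metalloproteinases, had 39.7% and 48.3% at day 4 and 3.57% and 5% at day 7. Its total level rose all the same, from 42.1 and 47.4 TPM to 59.8 and 57.9 TPM. The cas level went from 25.4 and 24.5 TPM to 57.7 and 55.0 TPM, and the mus level from 16.7 and 22.9 TPM to 2.14 and 2.90 TPM. Timp1 thus rose from the cas allele while it fell from the mus allele. It overlaps Syn1 on the other strand, and 93 of the 312 genes overlap a gene on the other strand in this way and 71 one on the same strand, so reads of such partners may be shared.

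Alg13, of an enzyme that helps build the lipid-linked glycan for N-glycosylation, had the highest day 4 share of these, 47.3% and 49.7%. It stood at 16.7% and 20.3% at day 7. Zdhhc9, a palmitoyltransferase gene, had 35.3% and 34.4% at day 4 and 5.30% and 5.58% at day 7, and Jade3, of a histone acetyltransferase complex, had 34.5% and 32.1%, then 6.32% and 5.03%. Jade3 was a plain case of a mus fall with an even cas level, which was 49.96 and 50.51 TPM at day 4 and 49.79 and 50.56 TPM at day 7. Taf1, the largest subunit of the general transcription factor TFIID, went from 36.6% and 40.4% to 5.17% and 14.0%, on 57.5 reads at day 7. Atp6ap2, Renbp and the cold-inducible RNA-binding protein gene Rbm3 fell by between 26.1 and 29.3 percentage points.

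Elf4, an ETS transcription factor gene, and AU015836 had no mus read at day 7. Elf4 had mus shares of 26.2% and 29.7% at day 4 and 0 of 109 reads at day 7, which allows a share of up to 2.75%. AU015836 had 28.0% and 27.9% at day 4 and 0 of 100.5 reads, which allows up to 2.99%. Both rose in total level, Elf4 from 5.23 and 5.22 TPM to 15.1 and 15.2 TPM.

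**Figure D3:**
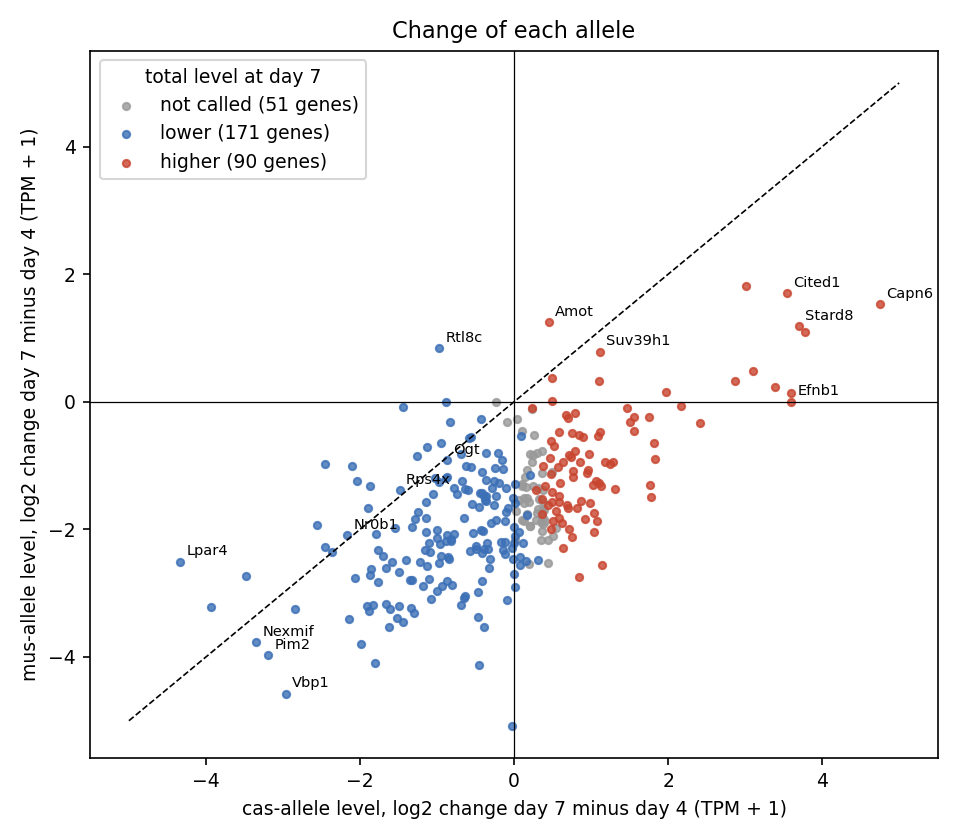
Change of the mus-allele level (vertical axis) against the change of the cas-allele level (horizontal axis), both as log2(TPM + 1) at day 7 minus day 4, 1 point per gene for 312 genes, coloured by the call for total level, with a dashed line of equal changes. Changes of cas lie on both sides of 0, with a median of -0.02, and changes of mus lie mostly below 0, with a median of -1.64.

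Split by allele, changes went both ways on cas and mostly down on mus. From the cas allele, 117 genes rose and 129 fell, 37.5% and 41.3% of those tested. From the mus allele, 9 rose and 260 fell, 2.88% and 83.3%. Median log2 changes were -0.02 for cas and -1.64 for mus, and -0.29 for the total. The mus median depended on the 1 TPM added before taking logs. With 0.1 TPM added it was -2.18, and with edgeR on allele reads -2.03. With 0.1 TPM added the medians were -0.0195 for cas and -0.299 for the total. The largest joint class was 120 genes lower on both alleles and in total, followed by 52 genes in which cas rose, mus fell and the total rose. In 26 genes cas rose and mus fell with no call for the total. Scaling to the median gene shifted the total by 0.507 and the cas level by 0.513 on the log2 scale and left 155 higher and 110 lower for the total and 172 higher and 83 lower for cas. A count test in edgeR on allele reads, scaled by TMM, gave 137 higher and 99 lower for the total. Directions of single genes close to the median therefore depend on that scale. The log2 TPM difference within the day 7 pair was an exact linear function of the differences within the other pairs, so these adjusted p-values may be too small.

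Of the 8 largest rises in TPM, 5 were of genes on the list of matrix, adhesion and growth factor genes, which holds 16 of the 312. That list was compiled with earlier results of these data known, and it also holds Stard8 and Cited1. Capn6, a calpain without protease activity that binds microtubules, had 8.35 and 6.89 TPM at day 4 and 173.1 and 180.6 TPM at day 7, a 20.7-fold rise on the log2(TPM + 1) scale (log2 4.37, SE 0.12, adjusted p = 4.807e-08). Stard8, a GTPase-activating protein with a lipid-binding START domain, had 18.6 and 22.2 TPM at day 4 and 253.6 and 243.3 TPM at day 7. The days lay far apart in both genes. The collagen IV genes Col4a5 and Col4a6, which encode chains of basement membranes, rose together: Col4a5 had 4.62 and 4.21 TPM, then 59.9 and 61.2 TPM, and Col4a6 had 8.81 and 7.67 TPM, then 77.4 and 79.0 TPM. Efnb1, an ephrin ligand of the cell surface, went from 17.8 and 18.6 TPM to 175.9 and 173.5 TPM. Cited1, a transcriptional coregulator, went from 9.70 and 8.58 TPM to 117.1 and 120.5 TPM. C430049B03Rik and Nhsl2 were the other two of the 8 largest rises.

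Most of each rise came from the cas allele. Capn6 had mus shares of 32.4% and 27.7% on 42 reads at day 4 and 3.73% and 6.13% on 545.5 reads at day 7. Its cas level went from 5.64 and 4.98 TPM to 166.7 and 169.5 TPM and its mus level from 2.71 and 1.91 TPM to 6.46 and 11.1 TPM. The mus rise was called with all libraries (adjusted p = 0.0141, limma) and not without the first (0.0517) or second (0.0893) day 4 library. Stard8 had mus shares of 13.4% and 13.8% at day 4 and 2.77% and 3.40% at day 7, with a mus level of 2.51 and 3.06 TPM, then 7.01 and 8.28 TPM. Efnb1 rose from cas alone: its mus level was 6.11 and 3.99 TPM at day 4 and 4.56 and 5.40 TPM at day 7, with overlapping libraries (adjusted p = 1.0). Col4a6 was expressed almost wholly from cas on both days, with mus shares between 0% and 0.78%.

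The 9 genes called higher on the mus allele were Amot, C430049B03Rik, Capn6, Cited1, Col4a6, Rtl8c, Spin2c, Stard8 and Suv39h1. All but Rtl8c also rose from cas. Suv39h1, a histone H3 lysine 9 methyltransferase, differed from the rest in a high share, 20.1% and 32.3% at day 4 and 19.4% and 24.2% at day 7, as its total rose from 122.9 and 129.8 TPM to 261.8 and 257.3 TPM. Spin2c had 24.5 and 27.8 TPM at day 4 and 216.1 and 207.7 TPM at day 7, with mus shares from 3.76% to 7.95%.

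The largest falls in TPM left little transcript at day 7. Lpar4, a receptor for lysophosphatidic acid, had 65.9 and 61.2 TPM at day 4 and 2.18 and 2.21 TPM at day 7 (log2 -4.34, SE 0.07, adjusted p = 8.081e-09). Pim2, a survival kinase, was among the most abundant X transcripts at day 4, with 629.8 and 660.1 TPM, and had 62.8 and 62.0 TPM at day 7. Nexmif had 57.6 and 61.5 TPM, then 3.35 and 3.29 TPM. No day 7 library of these genes came near a day 4 library. Map7d3, a microtubule-associated protein gene, Mcf2, a guanine nucleotide exchange factor gene, Vbp1, of the chaperone prefoldin, Sms, of spermine synthase, and Zfp182 made up the 8. Zfp182 had no mus read among 32.5 at day 7, which allows up to 9.23%. Pim2 kept a mus share of 10.4% and 17.2% at day 7, after 20.4% and 25.1% at day 4 (log2 odds -0.86, adjusted p = 0.000192), and Mcf2 had 59.1% and 48.6% on 28.5 reads after 39.8% and 38.2%, which was not called (95% interval -0.29 to 1.95).

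**Figure D4:**
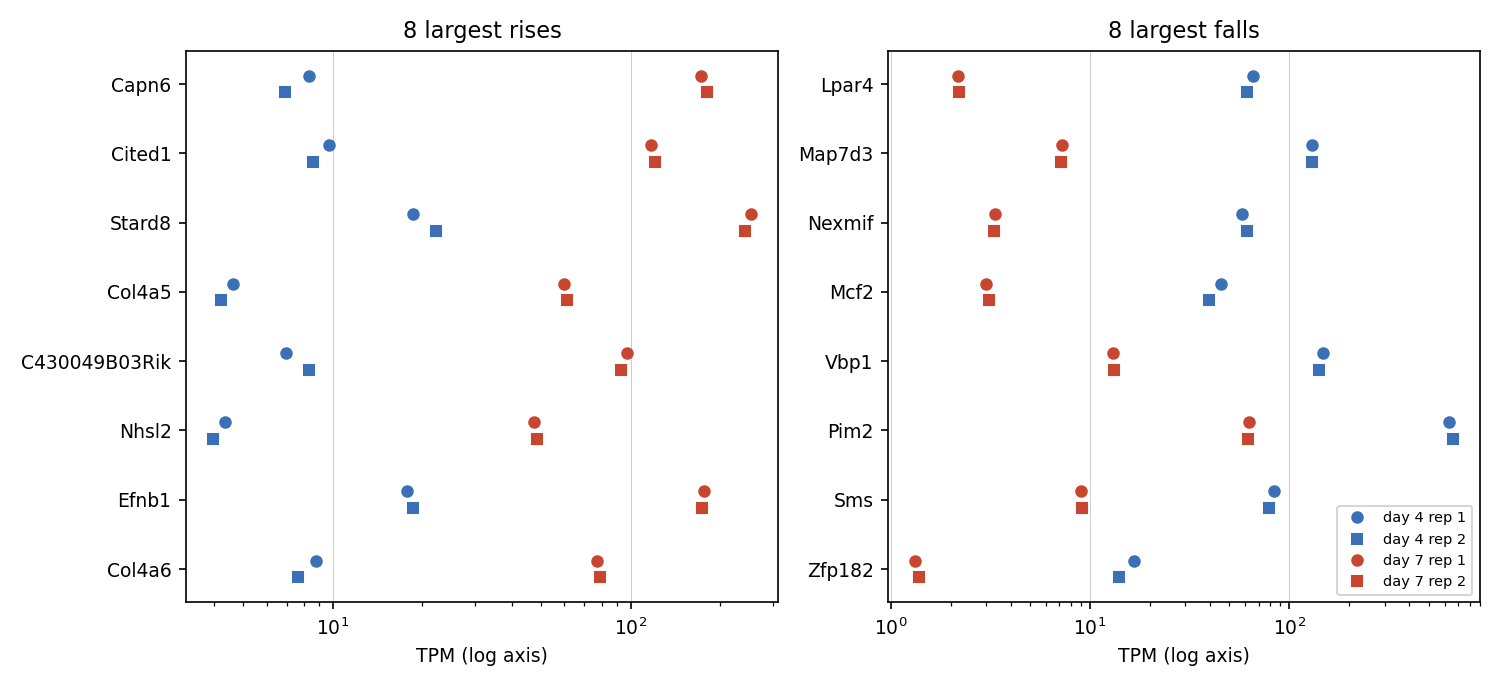
TPM (log axis) in each day 4 and day 7 library for the 8 genes with the largest rises and the 8 with the largest falls. The pairs of points of each day lie close together, and no gene shows overlap between days, from Capn6 (8.35 and 6.89 to 173.1 and 180.6 TPM) to Lpar4 (65.9 and 61.2 to 2.18 and 2.21 TPM). The log2 TPM difference within the day 7 pair was an exact linear function of the differences within the other pairs. Closeness of the day 7 points therefore need not measure the spread between libraries.

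Promoters of genes that moved in different ways are printed as the 120 bases before the RefSeq start site (GRCm38.p6, 5′ to 3′ on the gene's strand). They are those of Capn6 and Stard8, both among the 8 largest rises of total level, and of Amot, which rose in mus share. The others are of Nr0b1, whose level fell with no called share change, and of Pim2, which fell in level and share. In the GENCODE annotation Amot starts at 145505181 and Stard8 at 99003248, so both printed windows lie inside the gene. Which start sites these cells use was not tested. Capitals mark the TATA box (letters TATAAA), the CCAAT box (letters CCAAT) and the GC box (letters GGGCGG), on either strand; none of the marked letters overlap.
Capn6, chrX:143827413-143827532, minus strand: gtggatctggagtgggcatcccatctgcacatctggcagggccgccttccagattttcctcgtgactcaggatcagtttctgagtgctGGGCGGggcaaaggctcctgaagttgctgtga
Stard8, chrX:99042461-99042580, plus strand: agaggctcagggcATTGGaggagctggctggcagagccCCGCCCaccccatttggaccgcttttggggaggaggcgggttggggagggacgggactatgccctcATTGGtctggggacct
Amot, chrX:145487640-145487759, minus strand: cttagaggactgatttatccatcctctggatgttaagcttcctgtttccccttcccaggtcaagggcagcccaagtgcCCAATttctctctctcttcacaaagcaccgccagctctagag
Nr0b1, chrX:86191655-86191774, plus strand: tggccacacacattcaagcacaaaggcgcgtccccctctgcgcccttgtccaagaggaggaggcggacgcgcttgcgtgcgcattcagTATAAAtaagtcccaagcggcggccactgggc
Pim2, chrX:7878186-7878305, plus strand: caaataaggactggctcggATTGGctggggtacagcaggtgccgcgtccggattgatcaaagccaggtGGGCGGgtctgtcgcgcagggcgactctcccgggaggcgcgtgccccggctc
Of the 5, the Nr0b1 window holds a TATA box, the Capn6, Stard8 and Pim2 windows a GC box, and the Stard8, Amot and Pim2 windows a CCAAT box. In the same 120 bases before the start of the 267 members with a RefSeq entry, the GC box occurred in 49.8%. It occurred in 24.0% of all 1223 X-linked windows of that length. Members were chosen for having reads on both days and had 1 window per gene, while the 1223 were limited in neither way. The GC box occurred in 55.8% of the 77 members whose total level rose and 43.9% of the 148 whose level fell. The CCAAT box occurred in 32.5% and 33.8% of these, and the TATA box in 1.3% and 4.1%. CpG were counted over 300 bases, 250 before the start and 50 after. Members had a median of 17 CpG per 300 bases against 7 over all X-linked windows. The median was 16 in members that rose and 17 in those that fell. These letters alone show no binding.

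Members of the matrix, adhesion and growth factor list rose more often than they fell. Of the 16, 11 had a higher total level and 5 a lower one, beside 28.8% and 54.8% over all genes. The list was compiled with earlier results of these data known, so these counts are not independent support for its theme. Scaled to the median gene the list had 11 and 3, beside 155 and 110 of all 312. Summed TPM of the list was between 926.6 and 943.6 at day 4 and between 1639 and 1655 at day 7. Gpc3, a cell-surface proteoglycan that binds growth factors, had 208.0 and 206.8 TPM at day 4 and 337.5 and 337.2 TPM at day 7. Its mus share went from 21.6% and 18.8% to 7.54% and 9.30%. In the list, mus shares fell in 9 genes, beside 78.5% over all genes, and rose in 1, Amot.

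Genes that fibroblasts also express rose as well. Of 7 measured genes of the fibroblast list, 6 had enough reads on both days, and all 6 had a higher total and cas level, beside 28.8% and 37.5% over all genes. They were also higher scaled to the median gene, where 155 and 172 of all 312 genes were. Their summed TPM went from between 632 and 654.5 to between 905.6 and 911.9. Flna, the actin crosslinker filamin A, had 341.6 and 353.5 TPM at day 4 and 395.6 and 390.7 TPM at day 7, with mus shares of 18.4% and 20.4%, then 15.2% and 16.8%. The share call for Flna was lost in limma (adjusted p = 0.145). Msn, of the membrane linker moesin, had mus shares of 18.7% and 17.3% at day 4 and 5.07% and 5.27% at day 7. None of the 6 was at 0 on either day. Col4a5 and Col4a6 are on both lists, the autosomal markers of fibroblasts were not analysed here, and the part of carried-over feeder cells in these values was not tested.

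X-linked genes of pluripotent cells and the early embryo did not move as a block. Of 13 measured, 6 had enough reads on both days. Of these, 4 had a higher total level and 1 a lower one, beside 28.8% and 54.8% over all genes. Dusp9, a MAP kinase phosphatase, had 140.1 and 150.3 TPM at day 4 and 280.4 and 274.7 TPM at day 7, and Morc4 had 19.8 and 18.8 TPM, then 127.0 and 128.0 TPM. Both rose from cas, with Dusp9 mus shares of 28.1% and 26.8% at day 4 and 4.77% and 5.98% at day 7. All other measured members of that list were short of reads at day 7. Among them Eras, a Ras protein of stem cells, had 84.3 and 83.0 TPM at day 4 and 6.57 and 6.61 TPM at day 7. Counting only the 6 would leave such falls out.

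Lists of general cell functions are set beside the calls over all genes, which were 78.5% lower in mus share and 28.8% higher and 54.8% lower in total level. Of 28 chromatin and transcription genes, 24 had a lower share and 0 a higher one, and total level rose in 9 and fell in 14, or 16 and 8 scaled to the median gene. Hcfc1, a host cell factor that tethers chromatin enzymes, had mus shares of 22.3% and 23.6% at day 4 and 10.99% and 9.91% at day 7 at an even level of 229.7 to 253.1 TPM. Bcor, a Polycomb-associated corepressor, rose from 113.2 and 126.4 TPM to 177.2 and 172.5 TPM as its mus share went from 19.2% and 19.6% to 5.93% and 8.27%.

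Among 21 RNA processing and translation genes, 19 fell in share, beside 78.5% over all genes, and 0 rose. The list's median share at day 7 was 11.7%, above the 4.57% of all 312 genes. Its members without a call were Rps4x and Rpl10, both with processed copies elsewhere. Total level fell in 14, beside 54.8% over all genes, and rose in 0. Scaled to the median gene it fell in 9 and rose in 6, beside 110 and 155 of all 312. Eif1ax, a translation initiation factor, had 16.5% and 17.3% at day 4 and 11.3% and 13.1% at day 7. That fall was called by edgeR (adjusted p = 0.001785) and not by limma (0.0524) or without the first day 7 library (0.0622).

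Of 12 genes of the ubiquitin pathway, 10 fell in share, near the 78.5% over all genes. Huwe1, a large ubiquitin ligase, had 29.7% and 29.6% at day 4 and 8.15% and 8.90% at day 7, with a cas level that did not differ (adjusted p = 0.369). Uba1, the main ubiquitin-activating enzyme, had 37.2% and 37.4%, then 17.8% and 19.8%. Usp11, a deubiquitinase, rose from 60.7 and 49.4 TPM to 131.5 and 138.3 TPM while its share went from 23.6% and 22.0% to 6.11% and 6.97%.

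Among 29 genes of mitochondria and metabolism, 24 fell in share, near the 78.5% over all genes. Total level fell in 19 and rose in 4, beside 54.8% and 28.8% over all genes, or 13 and 14 scaled to the median gene. Idh3g, of the citric acid cycle, kept its total, at 243.6 to 263.8 TPM in all 4 libraries, as its mus share went from 37.4% and 38.7% to 16.4% and 17.0%. Hccs, which attaches heme to cytochrome c, had 23.4% and 24.1% at day 4 and 3.39% and 2.99% at day 7. Of 22 neuronal genes, 14 fell in share, a part below the 78.5% over all genes. Total level rose in 4 and fell in 13, near 28.8% and 54.8%, or 9 and 5 scaled to the median gene. Bex1 had 24.2% and 22.1%, then 12.9% and 13.1%, and shares 21.1% of its 50-base words with other genes, mainly Bex family members.

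Genes that rose most had the lowest mus shares at day 7. The 26 genes whose TPM rose at least 2-fold had a median mus share of 12.2% at day 4 and 2.28% at day 7, and kept 18.3% of their day 4 share. The 24 that fell at least 4-fold had 23.6% and 7.94% and kept 45.2%. Between these, the 58 that fell 2-fold to 4-fold kept 32.6%, the 114 that fell under 2-fold 24.9%, and the 90 that rose under 2-fold 24.2%. Depth differed too, with a median of 70.75 reads at day 7 in the class that fell most and 417 in the class that rose most, and its part in the order was not tested. On the mus allele itself, the class that rose at least 2-fold had 7 genes called higher and 3 lower.

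Mus shares showed no relation to distance from Xist, while windows of the chromosome differed. Over 312 genes the distance of a gene's start from that of Xist and its day 7 mus share had a Spearman correlation of 0.0224, and distance and odds change one of 0.0157. In windows of 20 Mb, median day 7 shares lay between 2.44% (120 to 140 Mb, 28 genes) and 7.62% (0 to 20 Mb, 37 genes). The first window held 15 genes of at least 10%, and the window of 120 to 140 Mb held 2. Genes of a window differ in function and level, and no test of windows was made.

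**Figure D5:**
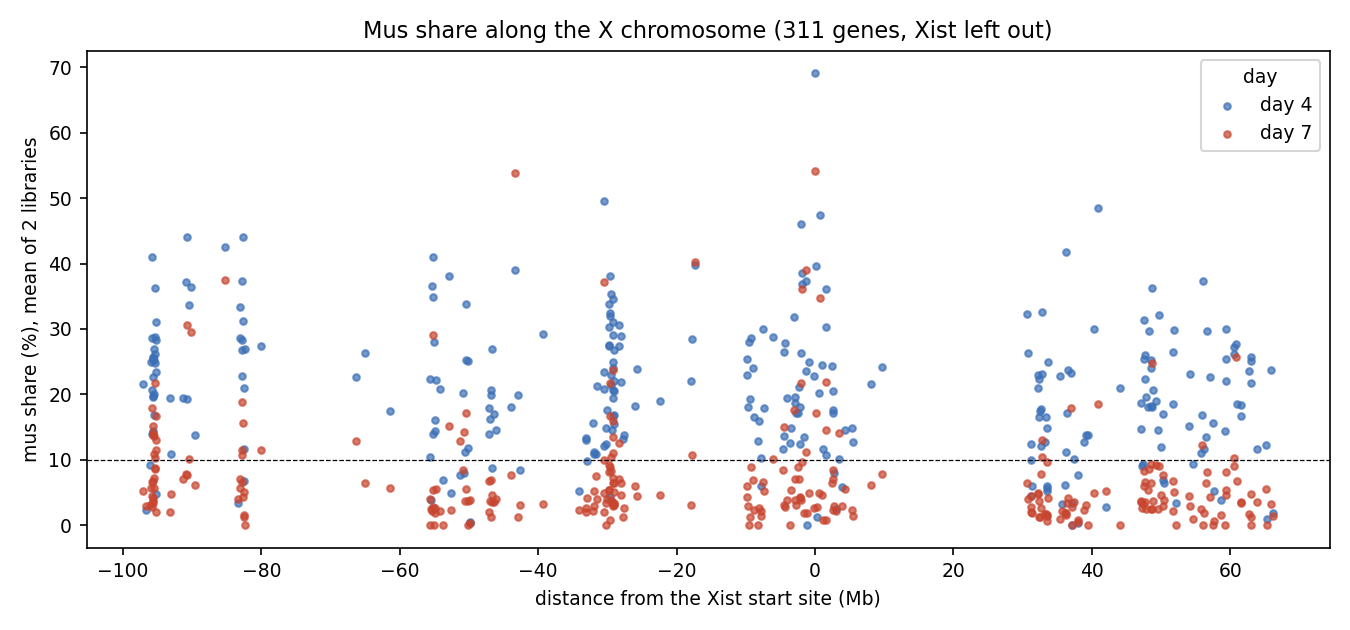
Mean mus share of each of the 312 genes except Xist (vertical axis, percent) along chromosome X, by distance of the start site from that of Xist (horizontal axis, Mb), at day 4 (blue) and day 7 (red), with a dashed line at 10%. Day 7 points lie low along the whole chromosome, and no gradient with distance is seen (Spearman correlation 0.0224 at day 7 with absolute distance).

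The 60 genes left out for lack of reads were mostly genes that went down, which follows largely from the rule itself. It left out 55 genes that were short of reads at day 7 only and 5 that were short at day 4 only. Median TPM of the 60 was 16.6 at day 4 and 6.42 at day 7, against 59.0 and 40.8 for the 312. Total level was called lower in 54 and higher in 5. The 5 that rose were those short of reads at day 4, all with low TPM then. Plac1, a placental gene, had 1.54 and 1.18 TPM at day 4 and 79.2 and 87.3 TPM at day 7. Gata1, the erythroid transcription factor, had 0.692 and 0.788 TPM, then 26.8 and 26.1 TPM, and Alas2, the erythroid enzyme of heme synthesis, had 0.081 and 0.105 TPM, then 9.92 and 9.38 TPM. Asb12 and Bgn, the matrix proteoglycan biglycan, were the others. Tsix was among the genes short at day 7, with 19.63 and 24.97 TPM at day 4 and 8.77 and 8.25 TPM at day 7.

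At the edge of the rule, Ccdc160 with 20 reads and Fgf13 with 21.5 at day 7 were kept, and Arhgap4 with 19.5 and Dock11 with 19 were not. Ccdc160 had mus shares of 0% and 28.6% at day 7, on 13 and 7 reads. The median SD of a gene's mus share between the libraries of a day was 1.64 percentage points at day 4 and 1.30 at day 7.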

How the data were processed

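RNA was rRNA-depleted total RNA, and libraries used a directional second-strand module, per the labels' protocols. The builds GRCm38 and mm10 and the tools STAR, HOMER 4.10, Trim Galore 0.4.1, limma and edgeR come from the submitters' processing notes, which give no roles. Use of strand in counting is not given in the sources used here. The authors deposited estimated counts of cas and mus reads, of which 41.4% were not whole, the fraction of each allele, which equalled the recomputed shares, and TPM, for 372 genes. All 372 symbols matched GENCODE M21, the source of coordinates.

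For mus share, rounded counts of cas and mus in each of the 6 libraries were fitted in edgeR 4.0.16, with 1 term per library, allele terms by day, and alleles left unscaled. The prior degrees of freedom were infinite, so genes were judged by a shared spread. Levels were fitted with limma 3.58.1 (trend) on log2(TPM + 1), also per allele, over all 6 libraries. P-values were adjusted over the whole table and called at 0.05. R 4.3.3, DESeq2 1.42.0 and scipy 1.17.1 were used, and the scripts were tested on simulated data. Named genes were those on the escape or X-inactivation centre list, the largest changes per measure, the highest day 7 shares and the deepest members of each other list. The 3 autosomal lists had 0 measured members. Members, lists and rules were chosen with earlier results of these data known. Replicate libraries differed in reads by more than counting noise (chi-square per degree of freedom 1.78 at day 4 and 2.55 at day 7), and each counted as 1 sample. Alternatives were other read minimums, tests, pseudocounts, filters and scalings, and leaving out each library. Some genes that the rule names are left out of the text.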

Additional observations from a re-analysis of the deposited data

How the results depend on the processing

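Falls outnumbered rises in every count and alternative run, except in share, total and cas level relative to the median gene and in total and cas level with edgeR on allele reads (cas 132 higher and 107 lower). Rises of mus share numbered 4 with limma on the empirical logit and 54 relative to the median gene, where falls numbered 11. Falls of share numbered 220 with DESeq2 and 242 with the 4 libraries alone. Leaving out each library in turn gave 1 to 2 rises and 214 to 233 falls of share, 79 to 83 and 161 to 164 of total level, 97 to 104 and 112 to 122 of cas level, and 4 to 9 and 241 to 264 of mus level, the lowest count of 4 mus rises without the first day 4 library. Total level gave 137 higher and 99 lower with edgeR on allele reads and 155 and 110 relative to the median gene, where the cas level gave 172 and 83. The cause was not tested beyond the scaling itself.

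The summed mus share at day 4 was 22.7% without Xist, 25.15% at a minimum of 50 reads and 24.77% with no minimum, and ranged from 24.9% to 25.1% when libraries were left out. At day 7 it was 8.38% without Xist, 10.41% at 50 reads and 10.3% to 10.4% with a library left out. The day 4 median share was 19.96% without Xist, 20.3% at 50 reads and 19.79% with no minimum.

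Relative to the median gene the log2 odds change of mus share also turned positive for Jpx (1.27), Mid1 (1.84) and Fgf13 (1.08), which were called in neither fit, and, with a call in at least 1 of the fits, for Ftx (0.61), Kdm5c (1.46), Kdm6a (1.85), Ddx3x (1.79), Eif2s3x (0.27), Utp14a (1.48), Pbdc1 (0.61), 5530601H04Rik (1.55), 1810030O07Rik (1.44), Firre (0.47), Alg13 (0.19), Pnma5 (1.42), Ogt (2.20), Nexmif (1.52), Hcfc1 (0.90), Bcor (0.57), Eif1ax (1.70), Huwe1 (0.0685), Uba1 (0.88), Usp11 (0.16), Idh3g (0.62), Pdha1 (0.0317), Ndufb11 (0.64), Gpc3 (0.77), Armcx2 (0.49), Bex1 (1.23), Tceal8 (1.55), Flna (1.90) and Msn (0.23).

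Libraries of the days share only a number: their deviations correlated at -0.144 in share and -0.991 in TPM. A replicate block gave 2 rises and 239 falls of share, 88 and 173 of total level, 117 and 128 of cas level and 7 and 257 of mus level. The crossed pairing, chosen after seeing the data, gave 2 and 243, 90 and 171, 118 and 128, and 9 and 263. With the day 7 pair counted as 1 library, 79 genes rose and 164 fell in total level. The share call for Col4a5 was lost without the second day 4 library (adjusted p = 0.477). Depth limits shares at day 7, where the 78 genes with the fewest reads had 20 to 85.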
